A study of Mus musculus with 21 samples.

Results

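The comparison of dexamethasone (DEX) with phosphate-buffered saline (PBS) in mouse liver at normal oxygen rested on 6 of the 18 glucocorticoid receptor libraries of the study, chosen by their labels. The tested animals were C57BL/6J mice kept at 21% oxygen that received 10 mg/kg DEX into the abdomen (3 libraries, DEX 1 to 3). Their controls were C57BL/6J mice at 21% oxygen that received PBS (3 libraries, PBS 1 to 3). Both groups were sampled 2 h after injection, on a 14 h light and 10 h dark cycle, and neither the time of day nor age or sex is given in the labels used here. The libraries are chromatin immunoprecipitations sequenced (ChIP-seq) from snap-frozen whole liver with the H300 antibody against the receptor, and they share 1 input library. In whole tissue, binding in more cells and more binding per cell cannot be told apart. Peaks of the 6 lists that shared 1 bp or more were joined, which gave 7220 sites, and each site is called by its nearest protein-coding gene, which need not be the gene it acts on.

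The glucocorticoid receptor is a nuclear receptor that waits in the cytoplasm with chaperones until a glucocorticoid binds it. It then enters the nucleus and binds DNA, often as a dimer on an inverted repeat, the glucocorticoid response element. In liver it is known for raising genes of glucose production and amino acid breakdown and for damping inflammation, and a saline-injected mouse still carries its own corticosterone. DEX is a synthetic agonist of the receptor.

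The response element could be looked for in RefSeq promoter windows (GRCm38.p6, 300 bases, 250 before and 50 after a transcript's start), and the sequences of 4 coding genes with a receptor site there are shown because they carry the element inside the peak. The motif searched was GNACANNNTGTNC, which reads the same way on both strands. It contains the shorter motif ACANNNTGT, which was searched as well. Capitals mark the longer motif, and the 250 bases before the start are printed on the gene's own strand. Mt1 (metallothionein 1, a zinc-binding protein) is chr8:94178839-94179088, plus strand. Map3k6, a kinase at the top of a MAP kinase cascade, is chr4:133240568-133240817, plus strand. Slc10a6, a transporter of sulfated steroids, is chr5:103629404-103629653, minus strand. Serpina3n, a secreted protease inhibitor of the acute phase, is chr12:104406458-104406707, plus strand.
Mt1: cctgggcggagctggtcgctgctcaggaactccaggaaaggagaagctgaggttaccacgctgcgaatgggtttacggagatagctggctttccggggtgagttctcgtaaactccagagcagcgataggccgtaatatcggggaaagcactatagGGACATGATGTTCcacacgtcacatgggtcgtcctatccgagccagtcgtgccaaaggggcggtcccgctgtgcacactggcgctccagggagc
Map3k6: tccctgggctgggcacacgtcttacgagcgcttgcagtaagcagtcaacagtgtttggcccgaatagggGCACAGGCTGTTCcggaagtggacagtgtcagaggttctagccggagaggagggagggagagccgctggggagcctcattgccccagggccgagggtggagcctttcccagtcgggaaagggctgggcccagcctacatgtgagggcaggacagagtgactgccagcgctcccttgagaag
Slc10a6: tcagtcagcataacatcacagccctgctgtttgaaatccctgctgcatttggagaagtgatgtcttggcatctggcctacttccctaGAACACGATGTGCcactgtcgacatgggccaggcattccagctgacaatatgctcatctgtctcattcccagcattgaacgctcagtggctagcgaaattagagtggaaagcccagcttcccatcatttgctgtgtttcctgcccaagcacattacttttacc
Serpina3n: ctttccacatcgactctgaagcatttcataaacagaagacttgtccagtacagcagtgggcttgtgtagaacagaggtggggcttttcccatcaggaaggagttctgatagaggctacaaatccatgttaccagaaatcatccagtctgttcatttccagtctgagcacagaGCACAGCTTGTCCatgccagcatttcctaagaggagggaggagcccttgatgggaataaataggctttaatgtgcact

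The centre of the capitals lay 3.5 bp from the centre of the merged receptor site in Mt1, 6.5 bp in Map3k6, 7 bp in Slc10a6 and 30.5 bp in Serpina3n. The Mt1 site held 234, 185 and 221 normalized tags in DEX 1, 2 and 3, against 21.1 in PBS 1, no peak in PBS 2 and 55.1 in PBS 3. A normalized tag is 1 sequenced fragment end scaled to 10000000 tags per library. The Map3k6 site held 237, 234 and 263 tags with DEX and had a peak in 1 PBS library, PBS 3, with 38.8. The Slc10a6 site held 140, 88.8 and 94.4 tags with DEX and the Serpina3n site 113, 70.6 and 58.8, and neither had a peak in any PBS library. At Mt1 and Map3k6 every DEX value lay above the PBS values that were called.

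Of 32851 promoter windows of 27025 genes, 85 held the centre of a site called in all 3 DEX libraries. The longer motif was in 10 of these 85 (11.8%), in 2 of the 602 windows holding a site with no DEX peak (0.332%) and in 0.475% of all windows. The shorter one was in 25 of the 85 (29.4%), in 12 of the 602 (1.99%) and in 6.85% of all windows. The 602 windows stand mainly for PBS 1. Of all sites with no DEX peak, 3246 were called in PBS 1 alone, at a median of 13.3 tags. Only 11 were called in another single PBS library and 11 in 2 or 3. Among the 85, the longer motif was in 7 of 28 windows whose site was also called with PBS (25%) and in 3 of 57 whose site was not (5.26%). Most of the 28 were called with PBS in PBS 1 alone. Of those with the longer motif, the windows of Serpinf2 and Gm39583 were called in PBS 1 alone. Those of Gm35287, Gm16573, Map3k6 and Mt1 had a peak in PBS 2 or PBS 3. These shares describe letters in promoter windows, some of which overlap, and were not tested. Receptor sites away from promoters were not searched.

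DEX livers had many more receptor peaks than the livers of PBS 2 and PBS 3, but not than that of PBS 1. The lists held 3659, 2235 and 2516 peaks in DEX 1, 2 and 3, against 3915, 145 and 343 in PBS 1, 2 and 3. The PBS 1 list was the longest of the 6, and the other PBS lists were far shorter than every DEX list. With all 6 libraries the groups therefore overlapped (4.73-fold in geometric mean, two-sided exact permutation p = 0.4, n = 3 against 3), and without PBS 1 the difference was 12.3-fold with no overlap (exact p = 0.1, n = 3 against 2). The smallest p that either design allows is 0.1. Peaks held 3.68%, 2.85% and 2.85% of all tags with DEX, against 0.684%, 0.211% and 0.349% with PBS, so that every DEX library lay above every PBS library, PBS 1 included (exact permutation p = 0.1, difference 2.71 percentage points). At 1 threshold for all libraries, 57.7 normalized tags, the lists held 2324, 2006 and 1677 peaks with DEX, against 44, 145 and 174 with PBS.

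**Figure D1:**
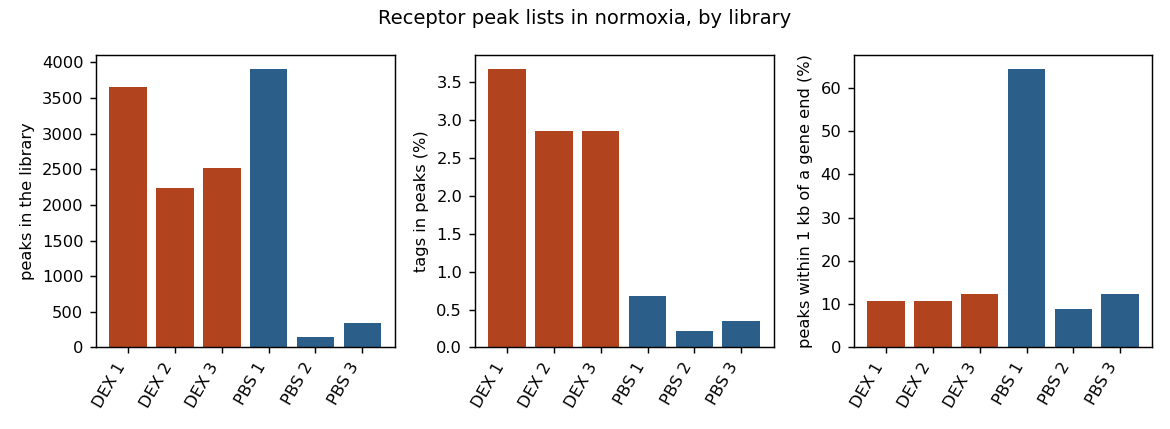
Bars give, for each library of the normoxia groups (DEX left, PBS right), the number of peaks, the percent of tags in peaks and the percent of peaks within 1 kb of an end of a protein-coding gene. PBS 1 has the longest list and 64.4% of its peaks near gene ends, while its share of tags in peaks (0.684%) is below that of every DEX library.

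PBS 1 stood apart from the other libraries. It held 43645787 tags, against 8667179 to 16500568 in the other 5 libraries. Its peaks were 280 bp wide, against 178 to 194 bp, and its caller allowed 2 tags per base, against 1. The caller asked for at least 50 raw tags in every library, which corresponds to 11.5 normalized tags in PBS 1, 57.7 in PBS 2, 30.3 in PBS 3 and 37.9 to 47.7 with DEX, and the lowest peaks listed held 9.85 in PBS 1 and 29.7 in PBS 3. Of its peaks, 64.4% lay within 1 kb of an end of a gene (95% Wilson interval 62.9 to 65.9, counting error only), against 8.97% to 12.4% in the other 5. PBS 1 alone gave 3246 of the 7220 sites, with a median of 13.3 normalized tags, and 74.7% of these were within 1 kb of a gene's end, compared with 10.7% of the sites called in all 3 DEX and 0 PBS libraries. At the 134 sites called in all 6 libraries, PBS 1 was the lowest PBS library at 131. What sets PBS 1 apart was not tested.

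All 3 DEX livers and 0 of 3 PBS livers gave a receptor peak at 1360 sites, 18.8% of 7220, and the reverse pattern was found at 1 site (0.0139%). At an equal list length of 145 peaks per library the counts were 38 and 19, with peak scores at least 2 times the minimum 463 and 1, and without PBS 2 1361 and 11. Without PBS 1 the first pattern, all 3 DEX and 0 of 2 PBS, was found at 1619 of 3978 sites (40.7%). Fisher's exact test per site called 0 sites (0 also at an unadjusted p under 0.05), because 3 against 3 detections cannot go below p = 0.1. Of the 1360 sites, 946 (69.6%) held more tags in each DEX library than the 57.7 that the minimum of 50 raw tags stands for in PBS 2. At the remaining sites at least 1 DEX value did not exceed that minimum, and a like level was not detectable in PBS 2 at its depth.

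The strongest of the 1360 sites lay in Map2k6, a kinase that activates stress-responsive MAP kinases (chr11:110448948-110449140, mm10). It held 1042, 1073 and 1051 tags in DEX 1, 2 and 3. A site in the cyclin-dependent kinase gene Cdk17 (chr10:93198478-93198688) held 636, 1014 and 1255, and one 2760 bp from Agtpbp1, a tubulin-trimming enzyme (chr13:59446674-59446873), held 714, 825 and 719.9. None of these 3 had a peak in any PBS library, and Cdk17 varied most among the DEX libraries. Near Gadd45g, a stress-induced growth arrest gene, a site held 642, 737 and 808 tags, and in Bcl2l1, which encodes the survival protein Bcl-xL, 735, 706 and 704. Hif3a, a member of the hypoxia-inducible factor family, held a site with 506, 546 and 739 tags. Mgll, the lipase that completes triglyceride breakdown, held 498, 473 and 399, and a site 196139 bp from Foxo1, a transcription factor restrained by insulin, held 502, 582 and 579.8. The other 4 of the 12 strongest sites were nearest to Arrdc2, Cldn14, Rbx1 and Dnajb12, with DEX means of 676, 601, 546 and 496 tags.

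Sites that also had a PBS peak were the strong ones with DEX. The median of the DEX mean was 83.6 tags at the 1360 sites with 0 PBS libraries, 100.1 at the 301 with 1, 172 at the 115 with 2 and 305 at the 134 with 3. Without PBS 1 the medians were 85.8, 169.6 and 305 tags at 0, 1 and 2 PBS libraries. The ranges overlapped, since a site with no PBS peak reached 1055 tags and one with 3 PBS peaks went down to 89.6. Of the sites with no PBS peak 58.3% lay inside a gene, against 41.8% of those with 3 PBS peaks, whose median distance from a gene when outside was 19090 bp, against 10850 bp. These are descriptions of classes that detection itself defines.

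**Figure D2:**
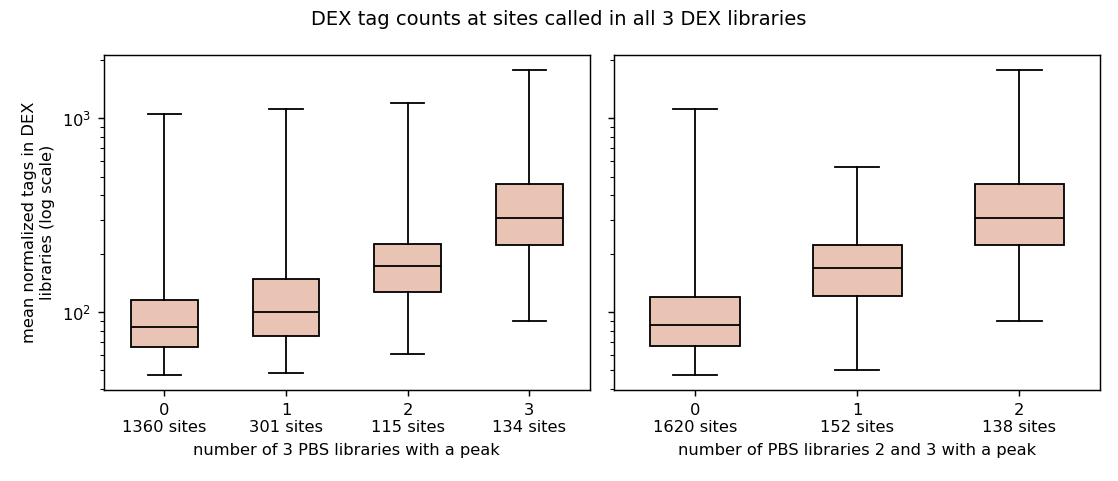
Boxes give the quartiles, and whiskers the full range, of the mean normalized tags over DEX 1 to 3 (log scale) at sites called in all 3 DEX libraries, by the number of PBS libraries with a peak (left, all 3; right, PBS 2 and 3 only). The median is 83.6 tags at 0 PBS libraries and 305 at 3.

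At the 134 sites called in all 6 libraries the receptor was already present with PBS, and DEX raised nearly all of them. Tag counts rose at 121 of 134 sites (90.3%) and fell at 0 (limma on log2 tags, Benjamini-Hochberg adjusted p of at most 0.05 over the 134; 0 lower also where p was left unadjusted). The median change was 2.01 on the log2 scale, or 4.04-fold, with an interquartile range of 1.66 to 2.40 and a median SE of 0.58. Without PBS 1, 122 of the same 134 sites rose (91%), 120 of them among the 121, and the median change was 1.57, or 2.97-fold, with a median SE of 0.19. At 124 of the 134 sites (92.5%) every DEX library lay above every PBS library. The median tag count over these sites was 306, 301 and 305 in DEX 1, 2 and 3, against 35.7, 102 and 91.2 in PBS 1, 2 and 3, so the groups did not overlap (4.40-fold, or 2.14 on the log2 scale, exact permutation p = 0.1, n = 3 against 3; 3.16-fold without PBS 1, exact p = 0.1). When each library was centred on its own median, which removes this shared shift, 21 sites were higher (15.7%) and 23 lower (17.2%) than the median site. The fold changes exclude the 1360 sites with no PBS peak, for which no PBS tag count was called.

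**Figure D3:**
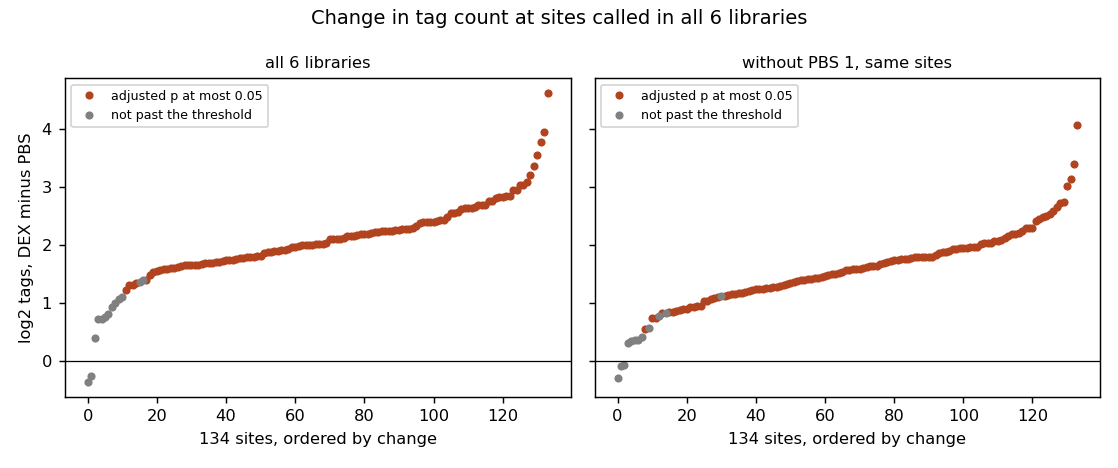
Each point is 1 of the 134 sites, placed by its change in log2 normalized tags (DEX minus PBS), with all 6 libraries (left) and on the same sites without PBS 1 (right), and coloured by the limma call. Nearly all points lie above 0 in both panels, and the median is 2.01 on the left and 1.57 on the right.

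The largest rise among the 134 sites was upstream of Fkbp5, the gene of a co-chaperone that lowers the receptor's own hormone affinity. This site (chr17:28512744-28513080) was nearest to Armc12 by gene span and lay 26.8 kb from Fkbp5. It held 1371, 1557 and 1809 tags in DEX 1, 2 and 3, against 29.3, 110.8 and 80.0 in PBS 1, 2 and 3. All DEX values lay far above all PBS values, and the log2 change was 4.62 (SE 0.64, limma adjusted p = 3.11e-10), or 4.06 (SE 0.20, adjusted p = 1.62e-06) without PBS 1. The limma p-values rest on a spread pooled over sites that share the same few libraries. They do not count a shift that 1 library shares over its sites, as PBS 1 does. By library, the exact permutation p cannot go below 0.1. A neighbouring site (chr17:28518047-28518327), 32.0 kb from Fkbp5, held 637, 737 and 904 tags with DEX, against 94.9, 292 and 370 with PBS, again without overlap. Inside Fkbp5 itself 3 sites were called in all DEX libraries and no PBS library. Without PBS 1, a site in Midn that PBS 1 had not called (chr10:80146745-80146949) ranked above it among 138 sites. It held 972, 1167 and 1469 tags with DEX, against 66.9 and 42.4 in PBS 2 and 3, a log2 change of 4.48 (SE 0.25).

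Zbtb16, which encodes the transcription factor PLZF, held the next largest rise of the 134 with all 6 libraries (chr9:48723725-48724005). It held 1023, 937 and 889 tags with DEX, against 16.7, 167 and 83.0 with PBS, a log2 change of 3.95 (SE 0.62, limma adjusted p = 2.3e-08). The groups were far apart. The change was 3.01 (SE 0.27) without PBS 1, below the next 2 sites in this paragraph, and 4.67 without PBS 2. A site 12352 bp from Poc1a, a centriole gene, held 585, 670 and 608 tags with DEX, against 27.0, 69.2 and 50.9 with PBS, a log2 change of 3.76 (SE 0.59), or 3.39 without PBS 1. A site 107155 bp from Ptpn1, the phosphatase that acts on the insulin receptor, held 617, 712 and 683 tags with DEX, against 32.3, 77.3 and 75.1 with PBS (log2 change 3.55, or 3.14 without PBS 1). A second Ptpn1 site, 78927 bp away, rose by 3.08 on the log2 scale, or 2.57 without PBS 1. Both lay in the same stretch as Cebpb, a liver transcription factor gene. In every one of these the DEX values lay above the PBS values with and without PBS 1.

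Plin4, a lipid droplet coat protein, held 796, 839 and 1095 tags with DEX, against 36.2, 149 and 127 with PBS (log2 change 3.36, SE 0.64, or 2.71, SE 0.19, without PBS 1). Klf15, a factor that promotes amino acid breakdown and glucose production, had a site 17514 bp away with 249, 343 and 349.9 tags with DEX, against 14.4, 72.7 and 63.0 with PBS (log2 change 2.94, SE 0.56, or 2.20, SE 0.20, without PBS 1). Nfkbia, whose product holds NF-kappa B in the cytoplasm, held 497, 467 and 548 tags with DEX, against 45.4, 91.1 and 83.0 with PBS (log2 change 2.84, SE 0.60, or 2.53, SE 0.15, without PBS 1). The groups did not overlap at any of the 3. The other 8 of the 15 largest rises were nearest to Foxp1, Dhx8, Frmd8, AA986860, Gm5148, Tns1 and Jade2 and, for the second site named above, Ptpn1, with log2 changes of 2.82 to 3.20, or 1.97 to 2.73 without PBS 1. Among these 8, leaving out PBS 1 moved the fold by over 1.5 times at AA986860 (2.95, or 1.97 without it) and Jade2 (2.82, or 2.18). After centring AA986860 was not past the threshold (adjusted p = 0.113).

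**Figure D4:**
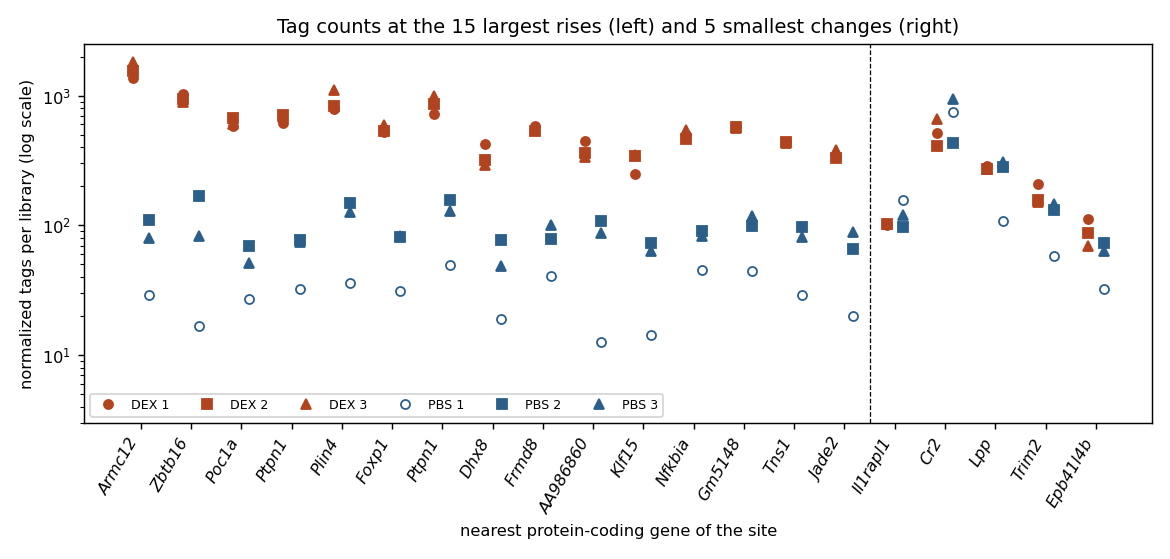
Points give the normalized tags (log scale) in each library at the 15 sites with the largest rise and the 5 with the smallest change, DEX left of PBS at each site, and PBS 1 as open circles. DEX and PBS are apart at all 15 on the left, with PBS 1 lowest, and overlap at 4 of the 5 on the right.

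A few sites carried about as many tags with PBS as with DEX. A site 64833 bp from Cr2, a complement receptor gene (chr1:195241573-195241853), held 520, 410 and 661 tags with DEX, against 748, 435 and 949 with PBS. The groups overlapped and the log2 change was -0.38 (SE 0.66, limma adjusted p = 0.576), or -0.30 (SE 0.33) without PBS 1. The input held 95.2 tags there on the scale of DEX 1, and the authors' highest fold over input was 10.1, against 1065 at the site upstream of Fkbp5. A site in Il1rapl1, a synaptic adhesion gene, held 101, 103 and 102 tags with DEX, against 158, 96.9 and 120.0 with PBS, with a highest fold over input of 6.26. A site 66809 bp from Lpp, a focal adhesion gene, held 289, 270.1 and 271 tags with DEX, against 108, 280.4 and 308 with PBS (log2 change 0.40, SE 0.62, and -0.088 without PBS 1, SE 0.14). Its input was low, with 1.47 tags and a highest fold of 209. The sites near Trim2 and in Epb41l4b changed by 0.72 (SE 0.56 and 0.66), neither past the threshold. Of the 13 sites not past it, 11 were also not past it without PBS 1, and those near Adk and Chrdl2 passed.

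Sites with peaks only in PBS livers were few once PBS 1 was set aside. Without PBS 1, 21 sites had a peak in 1 PBS library and no DEX library, and 1 site in both. With all 6 libraries, 1 site had a peak in all 3 PBS libraries and 0 of 3 DEX libraries, on the mitochondrial genome (positions 15464 to 15744), with 2223, 1468 and 3401 tags in PBS 1, 2 and 3. Another 10 sites had peaks in PBS 1 and PBS 3 but in no DEX library, the strongest of them in Pank1, an enzyme of coenzyme A synthesis, with 28.9 and 85.5 tags. At the other 9, nearest to Xrn1, Tmem267, Ctso, Parp12, Nmi, Hccs, Bahcc1, Tmem168 and Tmem39b, the PBS mean was 24.6 to 39.1 tags, while the caller's minimum stands for 37.9 to 47.7 in the DEX libraries. Of these 11 sites 8 lay within 1 kb of a gene end.

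Genes long known to respond to glucocorticoids were often nearest to a site. Of 30 feedback and classical target genes, 23 (76.7%) were nearest to a site called in all 3 DEX libraries, against 6.24% of 21900 protein-coding genes, and 14 (46.7%) to a site with no PBS peak, against 4.8% of all. Without PBS 1 the last count was 16 (53.3%), against 5.57% of all. A site in PBS 2 or PBS 3 was nearest to 14 of the list (46.7%) and to 1.29% of all coding genes. The genes of the list held 16 of the 134 tested sites, of which 15 rose in limma with and without PBS 1, with a median log2 change of 2.10, against 2.01 over all 134. Zfp36, whose product destabilises inflammatory messenger RNAs, held 977, 1015 and 1383 tags with DEX, against 94.6, 258 and 272 with PBS. Cdkn1a, the cell cycle inhibitor p21, held 784, 921 and 1201 with DEX, against 84.8, 166 and 232 with PBS. These groups did not overlap, and the log2 changes were 2.56 (SE 0.66) and 2.68 (SE 0.65), or 2.07 and 2.28 without PBS 1. Sites with no PBS peak included those of Dusp1, a MAP kinase phosphatase (200.3, 189.9 and 144 tags with DEX), Sgk1, a kinase (124, 124 and 80.5), and Ddit4, an inhibitor of mTOR signalling (109, 121 and 114). Nr3c1, the receptor's own gene, had a peak in DEX 1 alone, with 53.1 tags. The list was written with earlier results of these data known.

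Among metabolic genes, sites were found at the key steps of glucose production and amino acid breakdown. Of 18 genes of gluconeogenesis and glucose handling, 10 (55.6%, against 6.24% of all coding genes) were nearest to a site in all 3 DEX libraries and 8 (44.4%, against 4.8% of all) to one with no PBS peak, or 10 (55.6%, against 5.57%) without PBS 1. Pck1, which encodes the cytosolic PEP carboxykinase, had a site 378 bp away with 147, 128 and 152 tags with DEX, against 26.8, 84.2 and 77.0 with PBS. The groups did not overlap and the log2 change was 1.35 (SE 0.59, limma adjusted p = 0.0257), but leaving out any 1 DEX library raised the adjusted p above the threshold, to between 0.0813 and 0.108. Without PBS 1 the change was 0.82 (SE 0.21, adjusted p = 0.00506), and after centring it was -0.79, below the median site. G6pc, the catalytic subunit of glucose-6-phosphatase, had 108, 116 and 108 tags with DEX, against 23.1 in PBS 1, no peak in PBS 2 and 52.1 in PBS 3. Of 18 genes of amino acid breakdown and the urea cycle, 9 (50.0%, against 6.24% of all) were nearest to a site in all 3 DEX libraries. Tat, tyrosine aminotransferase, held 213, 143 and 136 tags with DEX at the strongest of 4 such sites and no peak with PBS. Cps1, the entry enzyme of the urea cycle, had 293, 232 and 204 tags with DEX, against 22.7, 91.1 and 47.3 with PBS (log2 change 2.38, SE 0.57, or 1.87 without PBS 1). Prodh, which opens proline breakdown, rose by 1.48 (SE 0.62, adjusted p = 0.0206), and its adjusted p was 0.0731 to 0.124 without any 1 DEX library. Without PBS 1 its change was 0.89 (SE 0.18, adjusted p = 0.00139).

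Of 20 genes of lipid metabolism and ketogenesis, 10 (50.0%, against 6.24% of all coding genes) were nearest to a site in all 3 DEX libraries, and 2 (10.0%, against 1.29% of all) to a site in PBS 2 or PBS 3. Of the 19 sites of these genes in all 3 DEX libraries 13 (68.4%) had no PBS peak, near the 71.2% over all coding genes. Besides Plin4, Lpin1, a phosphatidate phosphatase, held 775, 513 and 364 tags with DEX, against 34.1, 198 and 80.0 with PBS (log2 change 2.69, SE 0.61, or 2.06, SE 0.41, without PBS 1 and 3.33 without PBS 2). Sites of the lipid-sensing nuclear receptor genes Ppard (375, 546 and 447 tags) and Ppara (253, 292 and 254) and of Cpt1a, the gate of fatty acid import into mitochondria (190.4, 149 and 134), had no PBS peak. In the list for bile acids, cholesterol and xenobiotics, 10 of 19 genes (52.6%, against 6.24% of all) were nearest to a site in all 3 DEX libraries, and 7 (36.8%, against 4.8%) to one with no PBS peak, or 10 (52.6%, against 5.57%) without PBS 1. Scarb1, a receptor for HDL, held 486, 427 and 360.0 tags with DEX and no PBS peak. Nr1i2, which encodes the xenobiotic receptor PXR, held 292, 345 and 284 with DEX, against 45.4, 111 and 83.0 with PBS (log2 change 2.03, SE 0.57, or 1.67 without PBS 1, and -0.10 relative to the median site).

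Of 24 acute phase and inflammation genes, 13 (54.2%, against 6.24% of all coding genes) were nearest to a site in all 3 DEX libraries, and 10 (41.7%, against 4.8%) to one with no PBS peak, or 12 (50.0%, against 5.57%) without PBS 1. Lcn2, an iron-trapping defence protein, held 253, 319.8 and 275 tags with DEX, and Saa1, serum amyloid A, 150.2, 213 and 118, both with no PBS peak. Of 19 clock genes, 8 (42.1%, against 6.24% of all) were nearest to a site in all 3 DEX libraries and 5 (26.3%, against 4.8%) to one with no PBS peak. Per1, a core clock repressor, held 404, 370.3 and 554 tags with DEX, against 132, 303 and 389 with PBS. The groups overlapped, and the log2 change of 0.80 (SE 0.65, adjusted p = 0.223) was not past the threshold, nor was the 0.34 (SE 0.21, adjusted p = 0.152) without PBS 1. Per1 was the 1 of the 16 tested sites of the classical genes that did not pass. Per2 held 111, 80.2 and 72.8 tags with DEX, against 24.1 in PBS 1, no peak in PBS 2 and 45.5 in PBS 3, and Ciart, another clock repressor, held 194, 242 and 324 with no PBS peak. Of 16 liver transcription factor genes, 7 (43.8%, against 6.24% of all) were nearest to a site in all 3 DEX libraries. Rxra, the partner of many nuclear receptors, had a site 51259 bp away that rose by 2.43 on the log2 scale (SE 0.61), or 1.88 without PBS 1.

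Some marker genes of the liver's cell types were nearest to a site in all 3 DEX libraries. They were 5 of 14 hepatocyte markers (35.7%) and 4 of 14 endothelial markers (28.6%), against 6.24% of all coding genes. None were among the 15 Kupffer cell and leukocyte markers or the 16 stellate cell and cholangiocyte markers. In lists this short, 0 cannot be told apart from the share over all genes. These shares were not tested. The endothelial markers were Flt1, Vwf, Gpihbp1 and Egfl7, with DEX means of 97.5 to 128 tags and no PBS peak. Their sites lay 26718, 0, 1809 and 25768 bp from the gene. Hnf4a, a defining hepatocyte factor, held 91.8, 122 and 103 tags with DEX and no PBS peak. A nearest gene does not say in which cells the receptor was bound.

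**Figure D5:**
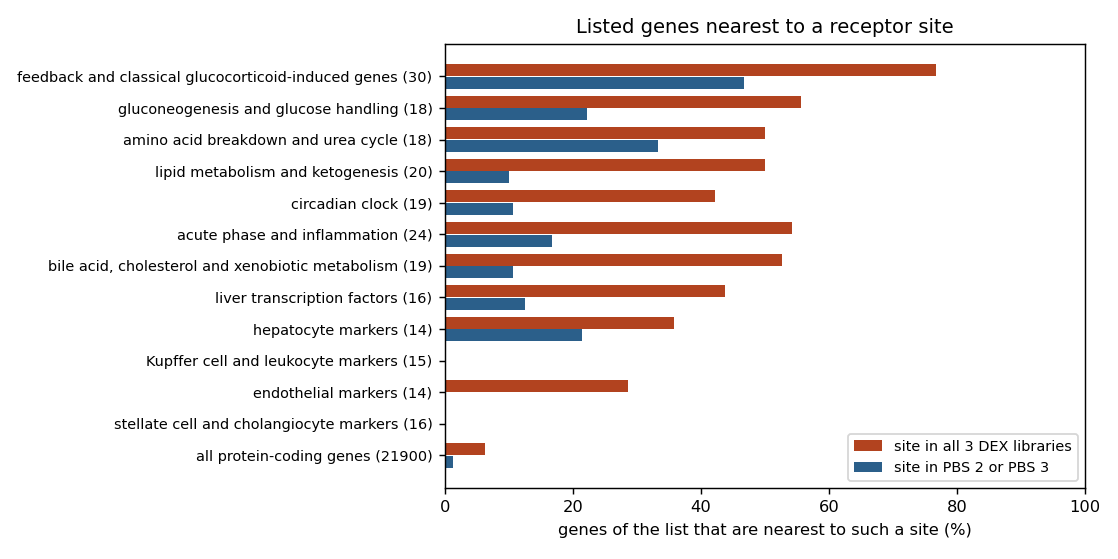
Bars give the percent of each list's genes (number of genes in brackets) that are the nearest coding gene of a site called in all 3 DEX libraries (upper bar) and of a site called in PBS 2 or PBS 3 (lower bar). The classical targets reach 76.7% with DEX, against 6.24% of all coding genes.

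Many receptor sites lay near others along the genome, and more stood alone. Of the 1910 sites called in all 3 DEX libraries, 917 (48.0%) had another such site within 50 kb, and 993 had none. The share was 65.7% for the 134 sites with 3 PBS peaks and 46.8% for the 1360 with no PBS peak. No share expected for randomly placed sites was set beside these, so grouping was not tested. Chaining neighbours within 50 kb gave 26 groups of 5 or more sites. The largest held 11 sites each, in the Cebpb and Ptpn1 region, the Errfi1 and Slc45a1 region and the region of Klf15, and Zbtb16 followed with 10. In the Cebpb and Ptpn1 group DEX means ran from 66.9 to 1778 tags, and 4 of its sites had peaks in all PBS libraries and 4 in none. In Zbtb16 5 of the 10 had peaks in all PBS libraries and 4 in none, so that sites present with PBS and sites seen only with DEX stood side by side. Errfi1 encodes an inhibitor of the EGF receptor. Most coding genes with a site had 1 only: 1042 of 1367, with 3 or more at 114.

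The DEX effect at these sites was also set against that in hypoxia, where mice had been kept at 7% oxygen for 6 h or 24 h before the same injections. At the 62 sites called in all 18 libraries, the median DEX effect was 2.01 on the log2 scale in normoxia and 1.39 in hypoxia. The hypoxia effect is the mean of those at 6 h and 24 h. Sites without a peak in any 1 of the libraries, PBS included, are left out. The difference between them passed the threshold at 0 of 62 sites (0%) in limma (3 at an unadjusted p under 0.05, smallest adjusted p 0.585), with a median of 0.65 and a median SE of 0.68. Without PBS 1 the normoxia median was 1.58, the difference 0.17, and 0 sites were called (0 at an unadjusted p under 0.05). All 62 differences were above 0 with PBS 1, and 45 without it. With each library centred on its median, 27 of 62 were above 0, with a median of -0.07. Centring without PBS 1 gave 30 above 0, with a median of -0.01. Centring removes the shift that a library shares over these sites, so a median near 0 is built in. The centred counts therefore do not show a direction for the typical site.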

How the data were processed

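The peak lists of the 6 normoxia libraries were used, which the sources name as biological replicates. The submitters' processing notes name Trimmomatic, BWA 0.7.17, SAMtools 1.10 and the build mm10. HOMER called peaks per library against the normoxia input (4-fold over input and local tags, Poisson p 1e-04, at least 50 tags), per the file headers. The deposited values are the authors' normalized tag count (a signal per 10000000 tags), peak score, fold over input (a ratio), percent of tags in peaks and focus ratio (a fraction, not printed). Score and fold only describe, rank or filter peaks. Depth was 8667179 to 43645787 tags.

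A site's tag count is that of its highest peak in a library, and detection stands for its replicates. Sites called in all 6 libraries were tested with limma 3.58.1 (R 4.3.3, trend, no pseudocount; tested on simulated data), detection with Fisher's exact test, and values per library with exact permutation tests (scipy 1.17.1). The simulated data held no shift of a whole library like that of PBS 1, so they do not cover this feature. Genes are RefSeq GRCm38.p6 spans, by distance from the site's centre. All 205 listed names matched 204 genes in 12 lists. Members and lists were chosen with earlier results of these data known. Named sites are the 15 largest rises, 5 smallest changes and 12 strongest with 3 DEX and 0 PBS peaks. Also named are those with peaks in at least 2 PBS and no DEX libraries, and the strongest site of listed genes. For PBS peaks only, the plan had asked for all 3 PBS libraries or for PBS 2 and PBS 3, at most 10. The sites of PBS 1 and PBS 3 go beyond that plan. The promoters shown, further sites near Fkbp5, the Midn site, site groups and most variable sites were chosen after their values were seen. Alternatives left out each library, or changed overlap, threshold, list length, centring, pseudocount and missing peaks.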

Additional observations from a re-analysis of the deposited data

How the results depend on the processing

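In every setting without centring, 0 of the tested sites passed the threshold with a fall. The log2 change was above 0 at 132 of the 134 sites with all 6 libraries. On the same sites without PBS 1 it was above 0 at 131. Leaving out 1 library gave 94 to 233 higher sites, the most without PBS 2, where 243 sites were tested, and the fewest without DEX 1. Higher sites numbered 19 of 24 tested at the common threshold, 32 of 37 with scores at least 2 times the minimum and 236 of 249 when a missing PBS peak was allowed, settings that change how many sites are tested. Centring each library on its median gave 21 higher and 23 lower sites. It also turned the sign at Lpp (-1.74), Trim2 (-1.41), Epb41l4b (-1.41), Per1 (-1.33), Klf9 (-0.91 and -0.39), Pck1 (-0.79), Prodh (-0.66), Errfi1 (-0.44 and -0.24), Nr1i2 (-0.10) and Zbtb16 (-0.22, -0.38 and -0.48 at 3 of its sites), since these rose less than the median site. At Lpp the change ran from -0.088 without PBS 1 to 0.67 without PBS 3. Sites called in 3 DEX and 0 PBS libraries numbered 1361 to 1651 without 1 library, 463 at the higher score and 38 at an equal list length of 145 peaks, where 19 showed the reverse. The reverse pattern was found at 1 to 11 sites without 1 library, 11 of them without PBS 2 and 2 without DEX 3. The share of peaks near a gene end differed by -17.3 percentage points, DEX minus PBS (exact p = 0.8), and ran from -27.1 to 0.66 when 1 library was left out, turning to 0.66 without PBS 1.

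Whether the replicate numbers pair the samples could not be told. The correlations of same-numbered deviations were -0.04, 0.16 and 0.48. DEX 2 and DEX 3 correlated best with the PBS library of the same number, and DEX 1 with PBS 2 (0.38). Deviations within a group of 3 sum to 0, so these correlations are not independent. With the replicate number as a block 117 sites were higher, and the hypoxia comparison had 0 calls (5 at an unadjusted p under 0.05). Centring there gave 0 calls, also without PBS 1, a setting chosen after seeing the data. Groups of 3 limit every test of detection.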

Other observations

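Tag counts of the DEX libraries agreed at most of the sites called in all 3 of them and differed at a few. Another 1404 sites had a peak in only 1 DEX library and 638 in only 2. Over the 1910 sites called in all 3, the coefficient of variation between the 3 livers had a median of 14.4% (interquartile range 8.87 to 21.6). The most variable site with a mean of at least 100 tags lay inside Fkbp5, with 442, 160.4 and 74.3 tags in DEX 1, 2 and 3. The kinase gene Tesk2 held 179, 90.7 and 47.2, Mocs1, of molybdenum cofactor synthesis, 184, 99.3 and 45.7, and a site near the agouti gene 420.3, 204 and 119. All 4 were highest in DEX 1 and lowest in DEX 3. Acot11, a thioesterase gene, was highest in DEX 3, with 75.9, 74.4 and 176. DEX 1 was the highest of the 3 at 799 of the 1910 sites, DEX 2 at 669 and DEX 3 at 442.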
